A study of Mus musculus with 2 samples.

Results

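The gene set described here holds 41 cell cycle genes, of the 27998 genes in the deposited matrices of retinal Cx3cr1+ cells. The members were taken by symbol from a fixed list, and all 41 were present. They were read in 3 groups, namely 15 S-phase members, 23 mitotic members and 3 widely used members whose transcripts also occur in cells that are not cycling (Stmn1, Hmgb2 and Tubb5). Cells came from male CB6F1 mice, 8 months old, with the Cx3cr1-YFP reporter. This reporter lights up wherever the promoter of Cx3cr1, a chemokine receptor gene, is active. It so marks microglia and also monocyte-derived cells. Both groups carried the reporter. The control group is described as having no light damage. In the light-damaged group, mice kept in the dark overnight had their pupils dilated (1% atropine sulfate, 10% phenylephrine hydrochloride), spent 4 h under 10 klux of LED light and recovered for 5 days. The treatment text of both samples is the same, so whether the control eyes were dilated is not given in the sources used here. Each group was 1 pool of retinas from 5 to 8 mice, sorted live for YFP and made into 1 library of the 10x Genomics 3′ kind. With 1 library per group there is no replicate check and no test between the groups, group and library cannot be told apart, and all intervals below are 95% intervals that cover counting error only.

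A cell that divides first copies its DNA in S phase and then separates the copies in mitosis. The Mcm2 to Mcm7 proteins form the ring helicase that opens DNA, Pcna is the clamp that holds the polymerases, and Rrm1, Rrm2, Tyms and Dut supply or protect the nucleotides. Their genes are switched on by E2F factors as a cell enters S phase. The mitotic genes, such as Cdk1 with its cyclins, the Aurora and Polo kinases and the kinesins of the spindle, peak later, in G2 and mitosis, under the MuvB complex with B-Myb and Foxm1. Microglia, the resident macrophages of the retina, divide rarely in a healthy adult and can multiply after injury.

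The control matrix held 4003 barcodes and 20056338 unique molecular identifiers (UMIs, one per captured transcript), and the light-damaged matrix 6821 barcodes and 58187149 UMIs. After filtering, 3820 control and 6427 light-damaged cells remained, with median depths of 4835 and 7277 UMIs, and 47 barcodes occurred in both libraries. Cells were called microglia when P2ry12, Tmem119, Siglech, Gpr34 and P2ry13 together had 10 or more UMIs per 10000, and other macrophages otherwise. Microglia numbered 3541 control and 5187 light-damaged cells, and other macrophages 279 and 1240. The cutoff divides a range, and 76 control and 384 light-damaged cells lay between 8 and 12. Of 4 microglia markers outside the rule (Sall1, Fcrls, Olfml3 and Cx3cr1), the median sum per 10000 UMIs was 22.5 in control and 25.2 in light-damaged microglia, against 4.67 and 8.45 in other macrophages. The class of other macrophages was not the same mixture in both libraries: summed markers of perivascular macrophages stood at 1368 UMIs per 1000000 in control cells and at 216 in light-damaged ones, those of monocytes at 35.2 and 119, and those of rods at 11480 and 294. In that class, 19 control and 15 light-damaged cells had fewer than 20 UMIs of general myeloid markers per 10000. The part of this makeup in the values for other macrophages was not tested.

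Because the 2 phases are known for different promoter elements, the 150 bases upstream of the RefSeq start site were searched in the RefSeq promoters of GRCm38.p6, the assembly that mm10 names. Windows were found for 34 of the 41 members. Start sites differ between annotations, and for 16 of the 34 the gene as GENCODE draws it began further upstream, within the window or before it. The letters searched on both strands were TTTGAA and TTCGAA for the cell cycle genes homology region (CHR) bound by MuvB, CCAAT for the NF-Y box, and TTCCCGC or TTGGCGC or TTCGCGC or TTGCCGC for the E2F site, overlapping matches counted. A CHR was found in 6 of 19 mitotic members (31.6%), in 1 of 13 S-phase members (7.69%) and in 11.2% of the 27025 genes with a window. CCAAT was found in 17 of 19 mitotic members (89.5%), in 8 of 13 S-phase members (61.5%) and in 27.7% of all genes. An E2F site was found in 3 of 19 mitotic members (15.8%), in 6 of 13 S-phase members (46.2%) and in 6.35% of all genes. CHR and CCAAT together occurred in 6 mitotic and 0 S-phase members, against 3.37% of all genes. A match is a description of letters and shows no binding in these cells. The windows below belong to the S-phase and mitotic members with the most UMIs in the light-damaged library among those whose window reached no more than 30 bases into the GENCODE gene (26 for Cdk1, 0 for the others). Ube2c, with more UMIs than Cdk1 (1988 against 1673), was left out by this limit at 31 bases, and its window held 1 CHR and 2 CCAAT matches. Mcm6 and Cdk1 had also been chosen after the motif counts were seen, because they show the E2F and the CHR letters. They run 5′ to 3′ on the gene's strand, with every match in capitals.

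Mcm3 promoter (chr1:20820313-20820462, minus strand): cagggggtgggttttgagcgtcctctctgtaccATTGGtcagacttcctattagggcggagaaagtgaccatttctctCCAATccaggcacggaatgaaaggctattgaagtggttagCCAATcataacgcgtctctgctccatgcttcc
Mcm6 promoter (chr1:128359706-128359855, minus strand): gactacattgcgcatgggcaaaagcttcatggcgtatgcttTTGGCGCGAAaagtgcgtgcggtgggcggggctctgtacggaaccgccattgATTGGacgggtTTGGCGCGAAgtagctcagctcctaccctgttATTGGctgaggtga
Birc5 promoter (chr11:117849087-117849236, plus strand): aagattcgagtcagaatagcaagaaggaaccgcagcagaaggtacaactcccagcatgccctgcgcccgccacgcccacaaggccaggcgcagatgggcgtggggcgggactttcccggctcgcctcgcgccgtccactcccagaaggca
Top2a promoter (chr11:99024190-99024339, minus strand): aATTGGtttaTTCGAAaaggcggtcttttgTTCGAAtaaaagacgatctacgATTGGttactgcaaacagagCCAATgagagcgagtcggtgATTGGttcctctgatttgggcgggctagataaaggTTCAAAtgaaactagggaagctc
Cdk1 promoter (chr10:69352913-69353062, minus strand): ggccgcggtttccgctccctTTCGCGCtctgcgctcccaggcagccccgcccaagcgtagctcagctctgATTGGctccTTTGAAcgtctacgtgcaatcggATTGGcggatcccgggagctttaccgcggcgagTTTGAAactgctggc

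Mcm6 carried 4 E2F matches as 2 runs of overlapping letters and 2 CCAAT boxes, and Mcm3 had 3 CCAAT boxes and no E2F match. Among the mitotic windows Top2a held 3 CHR and 4 CCAAT matches, and Cdk1 2 and 2 with 1 E2F match. Birc5 held none of the searched letters in its window.

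S-phase members were higher in the light-damaged library. In microglia the 15 genes together stood at 153 CPM (UMIs per 1000000 UMIs of the class, from 2686 UMIs in 1569 cells) in the control and at 287 CPM (11624 UMIs in 2804 cells) in the light-damaged library, a ratio of 1.87 (1.79 to 1.95). In other macrophages they stood at 209 CPM (333 UMIs in 165 cells) and 401 CPM (5362 UMIs in 831 cells), a ratio of 1.92 (1.72 to 2.15). Counted as over 1.5 times higher, among genes with 20 or more UMIs in both libraries together, were 12 of 15 members in microglia, where 9.93% of all genes were that much higher and 14.8% that much lower, and 11 of 15 in other macrophages, where the shares of all genes were 21.4% and 29.7%. No S-phase member was over 1.5 times lower in either class. The median log2 ratio of the S-phase members was 1.25 in microglia and 1.36 in other macrophages, beside -0.04 and -0.06 over all genes.

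Pcna, the polymerase clamp, did not follow the rest. It had 823 UMIs in 682 control microglia and 1761 UMIs in 1026 light-damaged microglia, or 47.0 and 43.5 CPM, a ratio of 0.92 (0.85 to 1.01). In other macrophages it stood at 62.8 and 59.9 CPM, a ratio of 0.95 (0.77 to 1.19). The helicase genes split. Mcm3 went from 29.3 to 38.1 CPM in microglia (513 and 1545 UMIs, ratio 1.30, 1.18 to 1.44), and Mcm4 had a ratio of 1.33 (1.10 to 1.61), both under the 1.5-fold line. Mcm5 stood at 5.37 and 20.4 CPM (ratio 3.80, 3.07 to 4.76), and Mcm6 at 6.63 and 21.8 CPM (ratio 3.28, 2.70 to 4.02). The intervals of Mcm3 and Mcm4 did not overlap those of Mcm5 and Mcm6. Such intervals take UMIs as independent and leave out their clumping in cells.

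The nucleotide genes were all higher in microglia. Rrm1, the large subunit of ribonucleotide reductase, stood at 11.3 and 21.9 CPM (ratio 1.95, 1.67 to 2.28). Rrm2, its small subunit, had the highest ratio among the S-phase members, with 21 UMIs in 11 control microglia and 890 UMIs in 162 light-damaged microglia (1.20 and 22.0 CPM, ratio 18.3, 11.9 to 29.7). In other macrophages Rrm2 had 2 UMIs in 2 control cells and 356 UMIs in 83 light-damaged cells (ratio 21.2, 5.82 to 176). Both subunits belong to 1 enzyme, yet the control library held Rrm1 UMIs in 182 microglia and Rrm2 UMIs in 11. Dut, which clears dUTP, had a ratio of 2.94 (2.43 to 3.57) in microglia and 1.29 (0.95 to 1.78) in other macrophages, whose control level was already 29.5 CPM. Tyms, which makes thymidylate, had ratios of 2.17 (1.82 to 2.60) and 5.53 (2.78 to 12.9). Uhrf1, which reads hemimethylated DNA behind the fork, had 12 and 313 UMIs in microglia (ratio 11.3, 6.36 to 22.0). The remaining members had ratios of 1.61 to 2.91 in microglia: the helicase subunits Mcm2 and Mcm7, Gins2, which joins the helicase at the fork, Ung, which removes uracil from DNA, and the chromatin remodeller Hells. In other macrophages Mcm4 (1.36) and Hells (1.41) joined Pcna and Dut under the line.

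**Figure D1:**
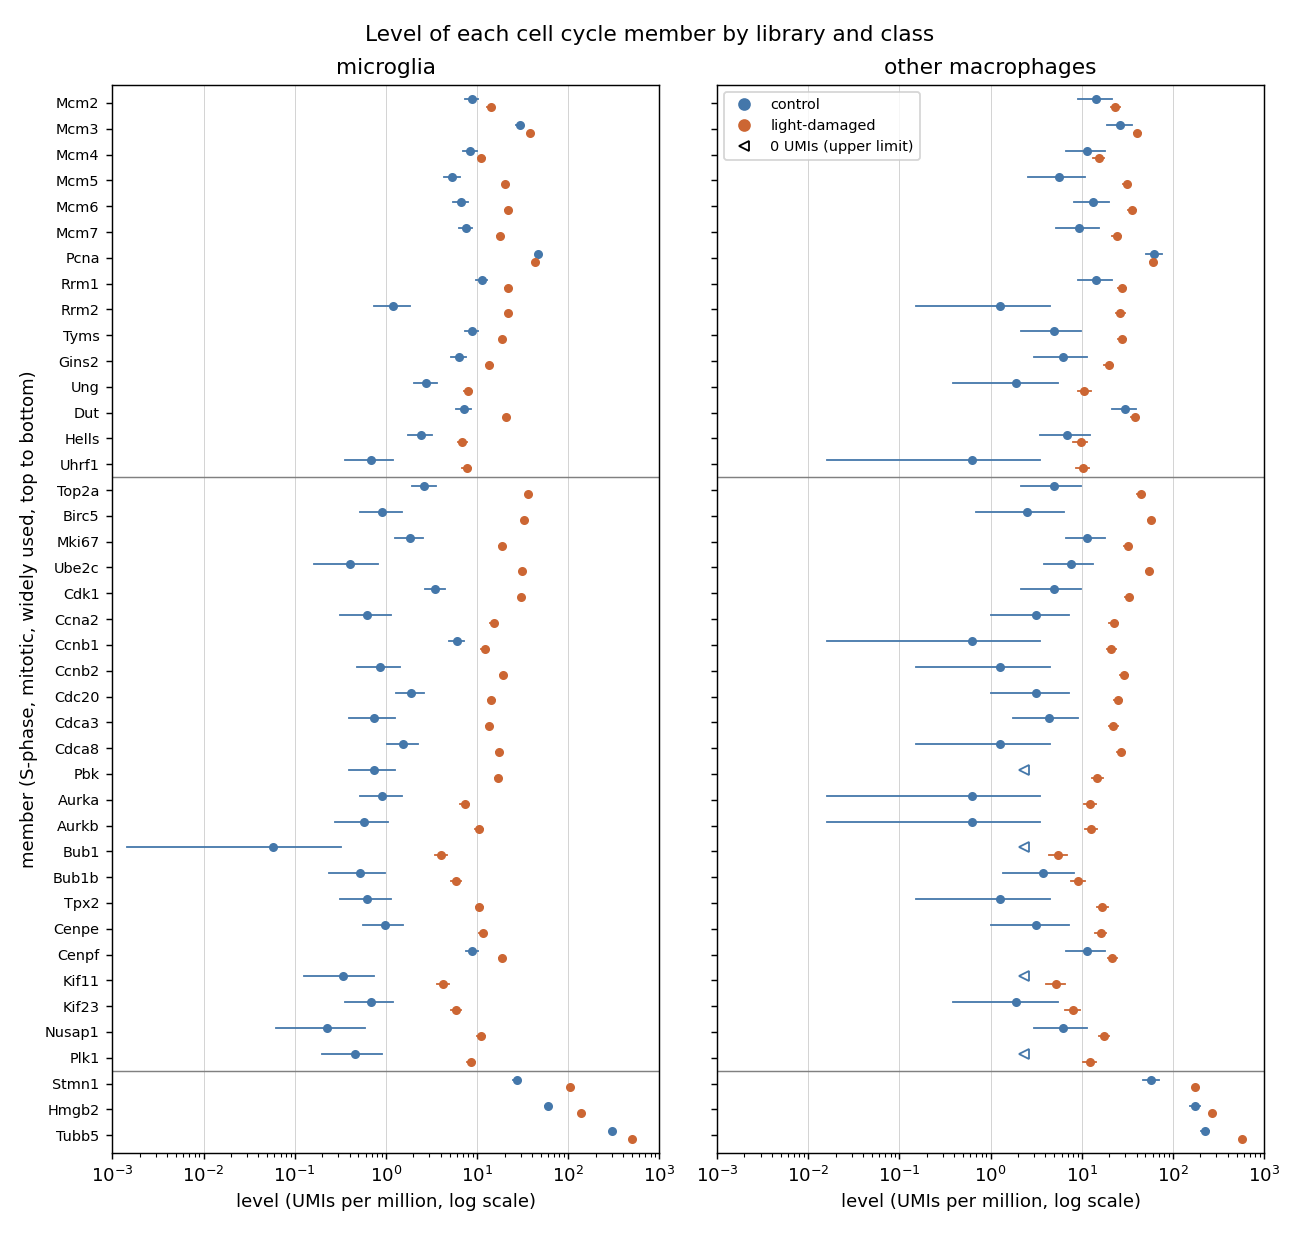
Level of each of the 41 members in CPM (log axis), control in blue and light-damaged in orange, with exact 95% Poisson intervals and open triangles for the upper limit where a member had 0 UMIs. In microglia all 23 mitotic members lie to the right in the light-damaged library, while Pcna (47.0 and 43.5) overlaps.

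Mitotic members were higher by far more. As a sum the 23 genes stood at 35.9 CPM (628 UMIs in 219 cells) in control microglia and at 356 CPM (14448 UMIs in 1216 cells) in light-damaged microglia, a ratio of 9.94. In other macrophages the levels were 74.1 CPM (118 UMIs in 51 cells) and 518 CPM (6939 UMIs in 492 cells), a ratio of 7.0. Over 1.5 times higher were 23 of 23 members in both classes, beside the 9.93% and 21.4% of all genes given above. Their median log2 ratio was 3.77 in microglia and 2.83 in other macrophages, where 4 members with 0 control UMIs entered at their lower bound. Ratios in microglia ran from 2.02 to 77.9 with a median of 13.6. For each S-phase UMI there were 0.234 mitotic UMIs in control microglia (0.214 to 0.255) and 1.24 in light-damaged microglia (1.21 to 1.27), and in other macrophages 0.354 (0.285 to 0.438) and 1.29 (1.25 to 1.34).

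Among regulators of mitotic entry, Cdk1, the mitotic kinase, had 61 UMIs in 53 control microglia and 1235 UMIs in 440 light-damaged microglia (3.48 and 30.5 CPM, ratio 8.74, 6.76 to 11.5). Its level in other macrophages was 5.02 and 32.7 CPM (ratio 6.52, 3.28 to 15.2). The cyclins that pair with it were also higher: Ccna2 by 24.2-fold (13.4 to 48.7) and Ccnb2 by 22.5-fold (13.5 to 40.4) in microglia. Ccnb1 had the lowest ratio of the mitotic members, 2.02 (1.64 to 2.52), from 105 control and 492 light-damaged UMIs. Of the control Ccnb1 UMIs, 87 lay in 5 cells that held 13 to 22 each with at most 1 other mitotic member. Without cells holding 4 or more Ccnb1 UMIs and fewer than 5 mitotic members, an alternative added after the data were seen, 18 and 482 UMIs were left and the ratio was 11.6 (7.23 to 19.7). Cenpf, a kinetochore protein, was alike in this respect, with a ratio of 2.11 (1.77 to 2.52) over all cells and 4.81 (3.73 to 6.28) without its 5 such control cells, which held 6 to 27 UMIs each and no other mitotic member.

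Of the genes that act on chromosomes, Top2a, the topoisomerase that untangles sister DNA, had 46 UMIs in 15 control microglia and 1453 UMIs in 227 light-damaged microglia (2.63 and 35.9 CPM, ratio 13.6, 10.2 to 18.7). Birc5, or survivin, a subunit of the chromosomal passenger complex, had 16 UMIs in 8 cells and 1333 UMIs in 211 cells (0.914 and 32.9 CPM, ratio 36.0, 22.1 to 63.1), and Cdca8, another subunit, had a ratio of 11.3 (7.71 to 17.3). Mki67, which coats mitotic chromosomes, stood at 1.83 and 18.9 CPM in microglia (ratio 10.4, 7.27 to 15.2). In other macrophages Mki67 stood at 11.3 and 31.8 CPM (18 UMIs in 13 cells and 426 UMIs in 159 cells), a ratio of 2.82 (1.76 to 4.80).

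Ube2c and Cdc20 serve the anaphase-promoting complex, which ends mitosis by destroying cyclins. Ube2c had the highest ratio of any member in microglia, with 7 UMIs in 2 control cells and 1262 UMIs in 231 light-damaged cells (0.400 and 31.1 CPM, ratio 77.9, 37.7 to 194). In other macrophages it had 12 UMIs in 4 cells and 726 UMIs in 128 cells (ratio 7.20, 4.10 to 14.0). Cdc20 had ratios of 7.62 (5.36 to 11.2) and 8.00 (3.39 to 24.8). Bub1, a spindle checkpoint kinase, had 1 UMI in control microglia and 164 in light-damaged microglia, a ratio of 70.8 with an interval of 12.5 to 2814.5. Members with 0 UMIs in control other macrophages were Pbk, Bub1, Kif11 and Plk1. Against a floor of 3 UMIs in that class they were at least 7.85-fold, 2.94-fold, 2.78-fold and 6.47-fold higher in the light-damaged library. The other mitotic members had ratios between 8.02 and 48.5 in microglia. They were the kinases Aurka, Aurkb, Plk1 and Pbk, the checkpoint gene Bub1b, the motor proteins Kif11, Kif23 and Cenpe, the spindle assembly factors Tpx2 and Nusap1, and Cdca3, which promotes mitotic entry. Nusap1 had the highest ratio of these (4 and 449 UMIs, interval 18.8 to 179) and Aurka the lowest (16 and 297 UMIs, 4.86 to 14.2).

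Of the 3 widely used members, Stmn1, which frees tubulin from microtubules, stood at 27.1 and 104 CPM in microglia (475 UMIs in 324 cells and 4234 UMIs in 905 cells, ratio 3.85, 3.50 to 4.24). Hmgb2, a chromatin protein, stood at 59.8 and 140 CPM (ratio 2.33, 2.19 to 2.50). Tubb5, a beta tubulin, stood at 304 and 503 CPM (ratio 1.65, 1.60 to 1.70) and was seen in 2480 control and 4409 light-damaged microglia. In other macrophages the ratios were 3.01 for Stmn1, 1.55 for Hmgb2 and 2.55 for Tubb5. Tubulin genes are alike in sequence, and how the authors' counting treated shared reads is not given in the sources used here.

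Mitotic UMIs were held by few cells. Most cells of each class held no mitotic member at all, 3322 of 3541 control microglia (93.8%) and 3971 of 5187 light-damaged microglia (76.6%). Cells with 1 member numbered 198 and 850. At the other end, 31 light-damaged microglia, 11 light-damaged other macrophages and 1 control microglia cell held all 23. Cells holding 5 or more of the 23, called multi-member cells from here on, numbered 7 in control microglia, 2 in control other macrophages, 163 in light-damaged microglia and 98 in light-damaged other macrophages. In light-damaged microglia 38 cells held 50% of the mitotic UMIs and 170 cells held 90%, and in light-damaged other macrophages 21 and 92 cells did.

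**Figure D2:**
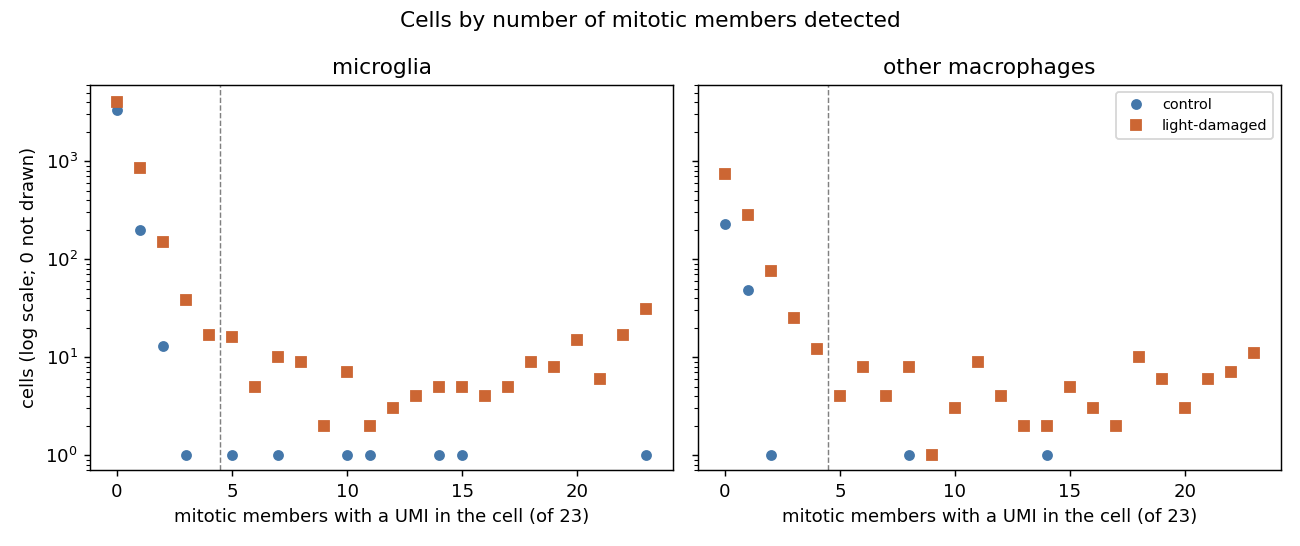
Number of cells (log axis, 0 not drawn) by how many of the 23 mitotic members had a UMI in the cell, for control (circles) and light-damaged (squares) cells, with a dashed line at the limit of 5 members. Of the light-damaged cells right of the line, 86 microglia and 43 other macrophages hold 18 or more members (all 23 in 31 and 11 of them), while 9 control cells lie right of the line.

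Multi-member cells were deeper than the others, with a median of 16812 against 6853 UMIs in light-damaged microglia and 18260 against 9282 in light-damaged other macrophages, and of 6247 against 4809 in control microglia. Each cell was therefore thinned to 3000 UMIs, which left out 627 control microglia and 75 control other macrophages that were shallower and no light-damaged cell. At that depth 3 of 2914 control microglia (0.103%, 0.0212% to 0.301%) and 106 of 5187 light-damaged microglia (2.04%, 1.68% to 2.47%) held 5 or more mitotic members. Among other macrophages the counts were 2 of 204 (0.980%, 0.119% to 3.50%) and 64 of 1240 (5.16%, 4.00% to 6.54%). Without thinning the shares were 0.198%, 3.14%, 0.717% and 7.90% in the same order. The intervals of the 2 libraries did not overlap in either class at equal depth, but with a signature cutoff of 5 those of other macrophages did (0% to 3.48% and 3.41% to 6.76%). Of the 9 control multi-member cells, 2 had 2907 and 2638 UMIs and were among the cells too shallow to thin.

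The S-phase set gave the same order. Thinned cells with 5 or more of the 15 S-phase members were 7 control microglia (0.240%) and 99 light-damaged microglia (1.91%), and 2 control (0.980%) and 48 light-damaged other macrophages (3.87%). In other macrophages these S-phase intervals overlapped (0.119% to 3.50% and 2.87% to 5.10%). A single S-phase UMI told the libraries apart much less: 33.8% of control and 32.1% of light-damaged microglia had at least 1 after thinning, with intervals of 32.1% to 35.6% and 30.8% to 33.4%. For 1 mitotic UMI the shares were 4.36% and 12.1%. Free RNA can also give stray UMIs, and its part here was not tested. In the cells with few myeloid markers, 3 of 19 control cells (15.8%, median depth 3332 UMIs) and 4 of 15 light-damaged cells (26.7%, median depth 4597) had at least 1 mitotic UMI and none had 5 members, which among so few cells allows shares of up to 17.6% and 21.8%. All kept cells together had 1 or more in 7.07% and 26.6%. As a caution, cells with 1 mitotic UMI were not read as cycling.

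**Figure D3:**
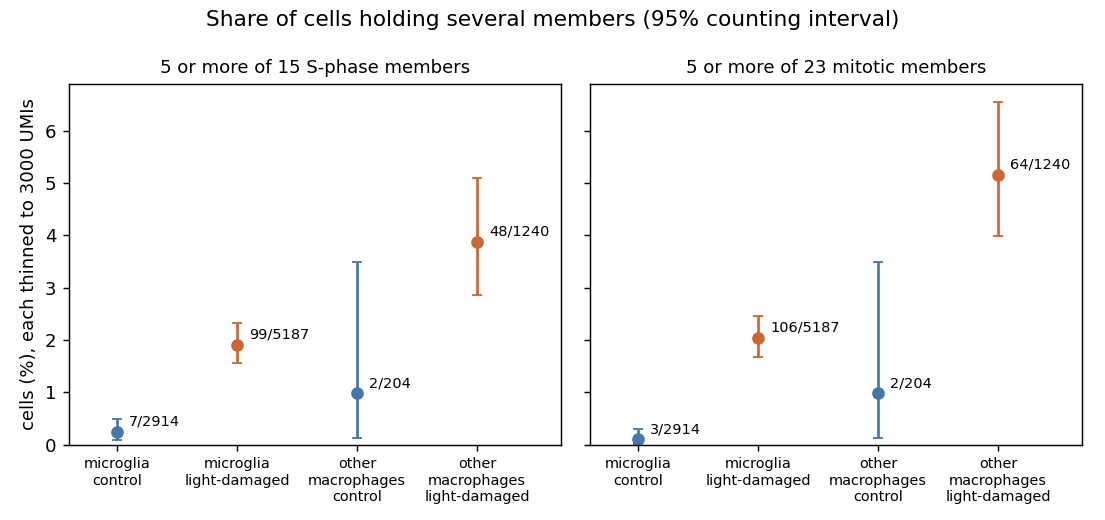
Share of cells (%) holding 5 or more of the 15 S-phase members or 5 or more of the 23 mitotic members after each cell was thinned to 3000 UMIs, by class and library, with exact 95% Clopper-Pearson intervals and the cell counts beside the points. For the mitotic members the light-damaged library is higher in both classes (2.04% and 5.16%), with no overlap with the control intervals.

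In light-damaged microglia the 163 multi-member cells held 89.6% of the mitotic UMIs, by how they were chosen, and 46.2% of the S-phase UMIs, which played no part in the choice. In light-damaged other macrophages the shares were 90.5% and 51.8%. In control microglia the 7 such cells held 35.4% and 3.69%. Multi-member cells were deeper than the rest and made up 3.14% of light-damaged microglia and 7.90% of light-damaged other macrophages. Shares of UMIs are therefore no measure of level and do not compare the classes. The S-phase sum in light-damaged microglia stood at 1820 CPM in multi-member cells against 166 in the rest. In light-damaged other macrophages it stood at 1490 against 224 CPM. The S-phase members differed among themselves. Of the UMIs in light-damaged microglia, Mcm3 had 25.6% and Pcna 33.5% in multi-member cells, Mcm6 41.8%, Dut 52.7%, Rrm1 55.3%, Tyms 60.2% and Rrm2 93.6%. The share of Rrm2 lay within those of the mitotic genes, which ran from 71.4% (Cdk1) to 98.3% (Kif11) with a median of 91.7%. Of the widely used members Stmn1 had 68.5% there, Hmgb2 58.7% and Tubb5 29.7%.

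**Figure D4:**
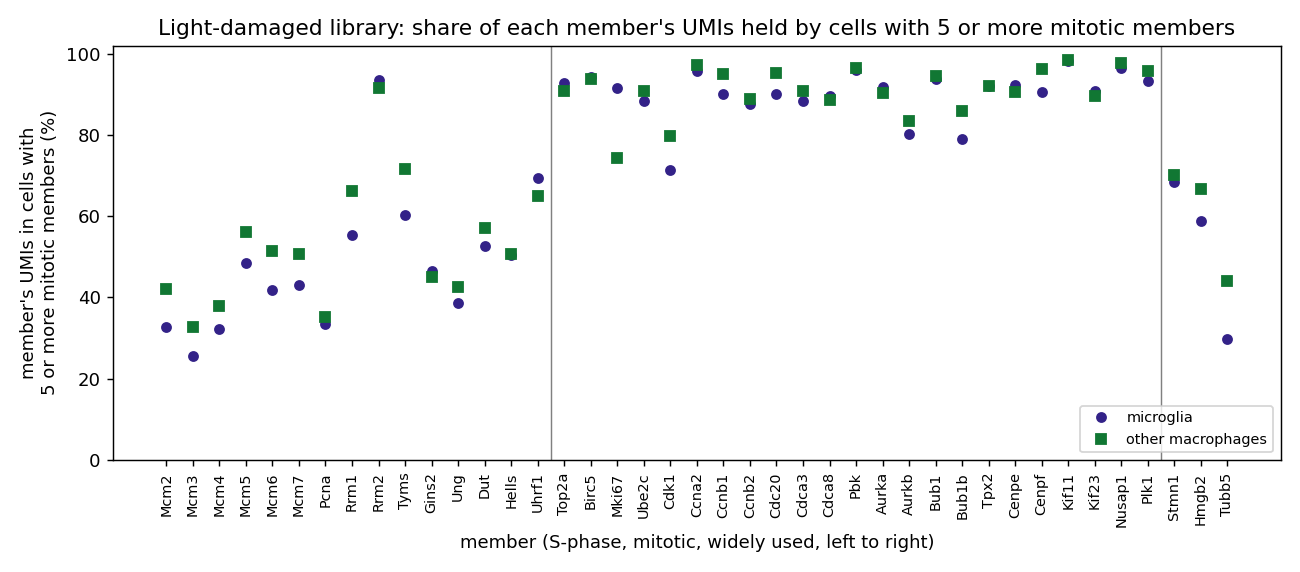
Percent of each member's UMIs that lay in multi-member cells (5 or more mitotic members) of the light-damaged library, for microglia (circles) and other macrophages (squares). S-phase members spread from 25.6% (Mcm3) to 93.6% (Rrm2) in microglia, and mitotic members, which define these cells, lie at 71.4% or above.

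Set against light-damaged microglia with no mitotic member, the multi-member cells had all 15 S-phase members over 1.5 times higher (22.6% of all genes were), from 5.12-fold for Mcm3 and 6.83-fold for Pcna to 254-fold for Rrm2 (31 and 833 UMIs, interval 178 to 377). In other macrophages the same 15 were higher (21.0% of all genes were), by 3.76-fold to 294-fold. Stmn1 was 40.9-fold, Hmgb2 19.4-fold and Tubb5 5.75-fold higher in microglia, and 23.1-fold, 14.0-fold and 5.48-fold in other macrophages. These contrasts are between cells of 1 library and describe it only.

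Without the multi-member cells the ratios of the sums were lower. The summed S-phase level was then 148 CPM in control and 166 CPM in light-damaged microglia (ratio 1.12, 1.07 to 1.18). In other macrophages it was 205 and 224 CPM (1.09, 0.97 to 1.23), an interval that included 1. The summed mitotic level was 23.3 and 39.9 CPM in microglia (1.72, 1.54 to 1.92), and 36.9 and 57.3 CPM in other macrophages (1.55, 1.18 to 2.06). Of the control mitotic UMIs left in microglia, 100 were of Ccnb1 and 138 of Cenpf, mostly in the 10 concentrated control cells described above. Without such cells of either library as well, an alternative added after the data were seen, the mitotic sum stood at 13.2 and 39.1 CPM, a ratio of 2.97 (2.58 to 3.43). The median log2 ratio of the mitotic members, all concentrated cells included, was 1.82 in microglia and 0.97 in other macrophages, and that of the S-phase members 0.59 and 0.53, beside -0.06 and -0.09 over all genes. In these remaining microglia Pcna was lower in the light-damaged library, at 46.2 and 31.2 CPM (ratio 0.68, 0.62 to 0.74), and in the remaining other macrophages its ratio was 0.71 (0.57 to 0.90). Mcm6 stayed higher at 2.21 (1.79 to 2.74), and so did Mcm5 at 2.32 (1.84 to 2.97), while Mcm3 (1.05), Rrm1 (0.99) and Tyms (0.97) lay near 1. Of the S-phase members 8 of 15 were still over 1.5 times higher in microglia, where 8.26% of all genes were, and 6 of 15 in other macrophages, where 19.0% were higher and 29.8% lower, with 1 member (Dut, 0.66) over 1.5 times lower. Of the mitotic members 16 of the 20 with enough UMIs were over 1.5 times higher in microglia and 2, Ccnb1 (0.23) and Cenpf (0.24), over 1.5 times lower (14.6% of all genes were). In other macrophages 8 of the 13 with enough UMIs were higher and 2, Bub1b (5 and 17 UMIs) and Cenpf (13 and 11 UMIs), lower. Of these 13, 9 had control UMIs, and the others entered at the floor of 3 counts. Intervals lay above 1 for 3 of the 13 and below 1 for 1. All 23 members together had 58 control UMIs in this class, so these counts of members rest on few control UMIs.

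S-phase and mitotic members marked overlapping but unlike cells. In light-damaged microglia 157 cells held 5 or more S-phase members and fewer than 5 mitotic ones, 120 held 5 or more of both and 43 of the mitotic set only. In light-damaged other macrophages the counts were 82, 72 and 26. The control library had 29, 3 and 4 such microglia and 5, 1 and 1 such other macrophages. At 3000 UMIs per cell the light-damaged counts became 61, 38 and 68 in microglia and 31, 17 and 47 in other macrophages, so the balance between the S-phase and the mitotic set in these counts moved with depth.

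Plotted by S-phase and mitotic UMIs per 10000, the cells with 5 or more members of either set lay along a ring with an empty middle. Bounds for its regions, the middle among them, were chosen after the plot was seen. Cells with fewer than 5 members of both sets were not plotted. Of the 320 light-damaged microglia with 5 or more members of either set, 202 had under 15 mitotic UMIs per 10000, 38 had 15 or more with 25 or more S-phase UMIs, 54 had 50 or more mitotic UMIs with under 25 S-phase UMIs, and 26 had 15 to 50 mitotic UMIs with under 10 S-phase UMIs. None had 15 to 50 mitotic and 10 to 25 S-phase UMIs. Of the 180 light-damaged other macrophages 112, 19, 25 and 22 lay in the same 4 regions and 2 in the middle.

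**Figure D5:**
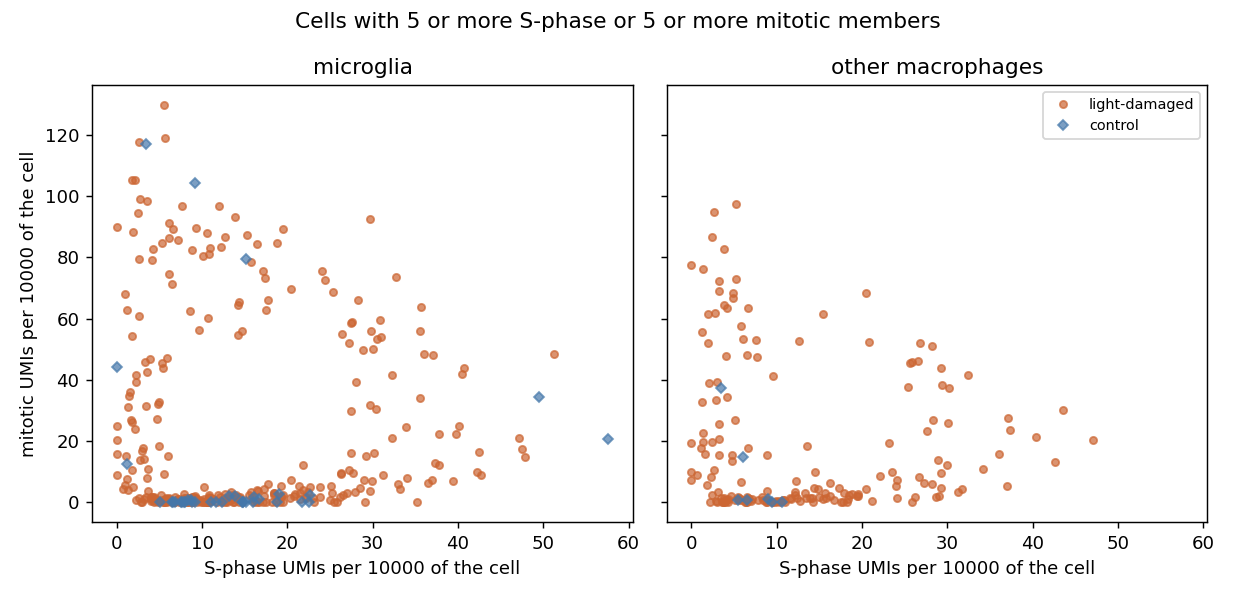
S-phase against mitotic UMIs per 10000 UMIs of the cell for every cell with 5 or more members of either set, light-damaged in orange and control in blue. The points leave the middle (10 to 25 S-phase and 15 to 50 mitotic UMIs, bounds chosen after the plot was seen) empty in microglia and with 2 cells in other macrophages.

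Single members differed between these regions, as a description of cells that the members themselves had sorted. In light-damaged microglia with under 15 mitotic UMIs, Mcm3 stood at 181 CPM and Rrm2 at 52.7. Where both sets were high, Rrm2 stood at 607, Pcna at 407 and Top2a at 573. At 50 or more mitotic and under 25 S-phase UMIs, Ube2c stood at 899, Top2a at 826 and Cenpf at 519, with Pcna at 70.7. At 15 to 50 mitotic and under 10 S-phase UMIs, Birc5 stood at 495, Ccnb2 at 425 and Cdc20 at 293, beside 720, 401 and 351 in the region of most mitotic UMIs. Top2a stood at 83.4, Cdk1 at 80.7 and Aurka at 16.1, beside 826, 533 and 205. Other macrophages had the same pattern, with Rrm2 at 540 where both sets were high, Ube2c at 918 in the region of most mitotic UMIs, and Birc5 at 436 beside Top2a at 74.0 in the last region.

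Within the light-damaged library, other macrophages had higher levels than microglia, though by small ratios. The S-phase sum was 1.40 times and the mitotic sum 1.45 times that of microglia. Over 1.5 times higher were 4 of 15 S-phase members (Mcm2, Mcm5, Mcm6 and Dut), 12 of 23 mitotic members and 2 of 3 widely used members (Stmn1 and Hmgb2), against 15.5% of all genes, and no member was over 1.5 times lower. The largest ratio among S-phase and mitotic members was that of Dut, 1.81 (1.62 to 2.03), and the smallest that of Pbk, a mitotic kinase, 0.88 (0.75 to 1.03). Birc5 (1.73), Ube2c (1.74) and Mki67 (1.68) were among those over the line, whereas Cdk1 (1.07), Mcm3 (1.07) and Top2a (1.23) were not. At 3000 UMIs per cell the share of multi-member cells was also higher in other macrophages (5.16% against 2.04%, intervals not overlapping). The classes were cut on a signature scaled by depth, and multi-member cells were deeper with a lower scaled signature, as given below. The part of the class rule in these differences between the classes was not tested. In the control library 6 of 10 mitotic members with enough UMIs were over 1.5 times higher in other macrophages and 1 was lower (Ccnb1), against 25.7% and 25.2% of all genes. Mki67 had the highest of these ratios, 6.18, from 32 UMIs in control microglia and 18 UMIs in control other macrophages. Intervals lay above 1 for 2 of these 10 members and below 1 for 1. Of the 118 mitotic UMIs of control other macrophages, 60 lay in 2 multi-member cells. For Ccnb1, 87 control UMIs lay in the 5 concentrated microglia described above.

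The split between the classes touched the multi-member cells more than the rest. Of 261 light-damaged multi-member cells 62.5% were microglia by the rule (56.3% to 68.3%), against 81.5% of the 6166 other cells. The median of the 5 signature genes was 13.1 per 10000 in multi-member cells and 33.3 in the others. The median numbers of signature UMIs per cell were 20 and 22, at median depths of 17329 and 7131 UMIs. The cause of the lower scaled signature was not tested. Between 8 and 12 per 10000 lay 24 multi-member cells called microglia and 11 called other macrophages. General myeloid markers had a median sum of 387 per 10000 in multi-member microglia against 486 in the other microglia, and of 303 against 306 in other macrophages. Markers of T and NK cells were at 0 in all light-damaged multi-member cells, and those of neutrophils summed to 3.05 CPM in microglia and 3.22 in other macrophages. Summed monocyte markers stood at 32.2 CPM in multi-member microglia against 11.0 in the other microglia, and at 167 against 111 in other macrophages. Their median per cell was 0 in both groups of microglia. Summed perivascular macrophage markers stood at 19.0 against 17.2 CPM in microglia and at 99.8 against 235 CPM in other macrophages. The origin of the multi-member cells was not tested.

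Further cell cycle genes were listed by function, with earlier results of these data known, and counted in the same way. Of 28 other replication genes 21 were over 1.5 times higher in light-damaged microglia and none lower, and of 40 other mitosis genes 36 and none, beside 9.93% of all genes higher and 14.8% lower. In other macrophages 17 higher and 1 lower of 27 replication genes and 34 higher and 2 lower of 40 mitosis genes were counted, beside 21.4% and 29.7% of all genes. The lower ones, named after their values were seen, were Usp1 (0.53), Ube2s (0.64) and Spc25 (0.16). The 3 genes with most UMIs on each list had ratios between 0.90 and 1.51 in microglia. Slbp, which binds histone mRNA, had 0.90 (0.84 to 0.96), the histone chaperone Nasp 1.38, Tipin of the fork protection complex 1.12, the alpha tubulin Tuba1b 1.23, the histone H2afz 1.51 and Arl6ip1 1.13. Their ratios in other macrophages were 1.17, 1.55, 1.45, 1.80, 1.76 and 1.24. In multi-member microglia against those with no mitotic member the same 6 were higher, by 2.64-fold (Arl6ip1) to 7.06-fold (Tuba1b).

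Of 9 G1 cyclins and kinases 4 were over 1.5 times higher and 1, Ccnd2, lower in each class (0.66 and 0.25). Of the E2F and pocket protein genes 7 of 13 were higher in microglia and 6 of 12 in other macrophages, with none lower. Over all genes 9.93% were higher and 14.8% lower in microglia, and 21.4% and 29.7% in other macrophages. Ccnd1, a D cyclin, had ratios of 0.89 (0.85 to 0.94) and 1.00 (0.84 to 1.20), its partner Cdk4 1.24 and 2.18, and Cdk6 1.36 and 0.89. E2f4, a repressive E2F, had ratios of 0.81 and 1.39, Lin54, the DNA-binding subunit of MuvB, 0.88 and 0.79, and Rb1, the retinoblastoma protein, 1.34 and 1.59. Ccne1, Ccne2 and Cdc25a were higher in both classes, with Ccnd3 in microglia and Cdk4 in other macrophages. The E cyclins, named after their values were seen, were far higher in multi-member microglia than in microglia with no mitotic member: Ccne1 by 90.3-fold (13 and 124 UMIs, 50.9 to 174) and Ccne2 by 201-fold (4 and 85 UMIs, 75.7 to 755). Ccnd1 was not, at 0.92 (0.82 to 1.04).

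Of 14 inhibitors and brakes of the cycle, 5 were over 1.5 times higher and 3 lower in light-damaged microglia, and 1 higher and 7 lower in other macrophages, where the shares of all genes were again 9.93% and 14.8%, and 21.4% and 29.7%. The higher ones in microglia, named with the others after their values were seen, were Cdkn1a, Cdkn2a, Cdkn2b, Cdkn2c and Cdkn2d, the lower ones Btg1, Cdkn1c and Ccng2, and the higher one in other macrophages Ccng1 (1.50). Btg1 and Btg2, antiproliferative genes, had ratios of 0.42 (0.41 to 0.44) and 0.91 (0.89 to 0.94) in microglia and of 0.40 and 0.57 in other macrophages, and Gas6, a secreted ligand first found in growth-arrested cells, had 0.95 and 0.53. Further values are given for some of the Cdk inhibitors. Cdkn1a, or p21, stood at 63.2 and 152 CPM in microglia (ratio 2.41, 2.26 to 2.57) and at 507 and 326 CPM in other macrophages (0.64, 0.60 to 0.69), and whether these ratios differ beyond library variation could not be tested. In multi-member other macrophages Cdkn1a stood at 75.1 CPM against 397 CPM in those with no mitotic member (ratio 0.19, 0.16 to 0.22), while in microglia the levels were 128 and 155 CPM (0.82, 0.74 to 0.92). In that contrast 3 of the 14 were over 1.5 times higher and 4 lower in microglia (22.6% and 18.2% of all genes were), and 4 higher and 6 lower of 13 in other macrophages (21.0% in each direction). Of the INK4 inhibitor genes, Cdkn2c and Cdkn2d were higher in multi-member microglia, by 12-fold (10.4 to 13.8) and 7.13-fold (6.29 to 8.08), and in other macrophages by 8.14-fold and 4.58-fold. Cdkn2a had ratios of 3.68 (3.02 to 4.48) and 0.97 (0.51 to 1.73). Cdkn2b had 3 UMIs in multi-member microglia (ratio 0.57, 0.11 to 1.76) and 0 in multi-member other macrophages.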

How the data were processed

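Single-cell RNA of sorted retinal cells was measured. The deposited values are whole UMI counts for every gene and barcode, which the authors did not normalize. Cell Ranger 2.0.0 and the build mm10 appear in the submitters' processing notes, and the remaining steps of the authors are not stated there. The 41 members and the further gene lists were chosen with earlier results of these data known. A barcode was kept with 300 or more genes and a mitochondrial share of no more than 10%. Scrublet in scanpy 1.11.5 marked 0 doublets in either library, so the highest scores were removed at 0.8% per 1000 barcodes (128 control, 372 light-damaged). Where 1 symbol had several identifiers (56 symbols), the one with most UMIs was used. UMIs were summed per library and class and divided by the class total (CPM). Ratios carry exact intervals for 2 Poisson counts, and shares carry Clopper-Pearson intervals, both with 95% confidence. Fold calls of 1.5 used genes with 20 or more UMIs in both groups together, and a count of 0 was set to a floor of 3 counts. These intervals cover counting error only and leave out PCR and capture. The ratio intervals also take UMIs as independent and leave out their clumping in cells. No p-value was computed, because there was 1 library per group. Counts were also simulated as Poisson draws from the class sums, without cells or library variation. In microglia 97.0% of 2-fold changes and 2.21% of unchanged genes were past the fold line. In other macrophages these shares were 85.0% and 8.45%, and 100% of 4-fold changes were past it in both classes. Mitotic UMIs lay in few cells, so these rates do not carry over to such members. All members were accounted for. Values were given for those with most UMIs (about 6 S-phase, 10 mitotic, all 3 widely used), those with 0 UMIs in a class and those with the highest and lowest ratio. Of the other lists the 3 with most UMIs were named. Alternatives were the doublet and cell filters, the signature cutoff, the scaling, the UMI minimum, thinning, the number of members, and leaving out multi-member cells or cells with few myeloid markers. Analyses used Python 3.11.15, numpy 2.4.6, scipy 1.17.1 and pandas 2.3.3. One gene of the microglia marker list was left out of the marker sums and is not reported here.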

Additional observations from a re-analysis of the deposited data

Results flagged for a closer look

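Barcodes removed as doublets also held mitotic members, in data that no comparison above used. In the light-damaged library 22 of the 372 removed barcodes (5.91%, 3.74% to 8.82%) held 5 or more of the 23 mitotic members, while in the control library 0 of 128 did, which allows a share of up to 2.84%. The share among kept cells was 4.06% (3.59% to 4.57%) in the light-damaged library and 0.236% in the control library. Median depth of the removed barcodes was 9446 UMIs in the light-damaged and 6155 in the control library. Of the removed light-damaged barcodes 35.2% had at least 1 mitotic UMI, and of the removed control barcodes 10.9%.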

How the results depend on the processing

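Values below are log2 ratios of summed levels, counts of members over 1.5 times higher, or percent of cells with 5 or more mitotic members. With a signature cutoff of 5, the S-phase ratio was 1.02 in microglia (0.90 in the main analysis) and 0.53 in other macrophages (0.94), the mitotic ratio in other macrophages was 3.68 (2.81), and the control share in other macrophages was 0% (0.980%), with an interval that reached that of the light-damaged share. With a cutoff of 20 the S-phase and mitotic ratios in microglia were 0.70 and 2.79 (0.90 and 3.31), the mitotic ratio in other macrophages was 3.13, and the share in light-damaged microglia was 1.23% (2.04%). Without multi-member cells the S-phase ratios were 0.17 in microglia and 0.13 in other macrophages, and the mitotic ratios 0.78 and 0.63. In other macrophages 6 of 15 S-phase members (11 of 15) and 8 of the 13 mitotic members with enough UMIs (23 of 23) were then counted. Of these 13, 9 had control UMIs. This setting removes the cells that hold most mitotic UMIs. As a mean of CPM per cell the S-phase ratios were 0.42 and 0.48 and the mitotic ratios 2.41 and 2.25. Without thinning the light-damaged shares were 3.14% and 7.90% (2.04% and 5.16%). With 3 or more members the share in light-damaged microglia was 2.62%. With 8 or more members the shares in other macrophages were 0% in the control and 3.23% in the light-damaged library. Apart from the member limit, the thinning and the smaller cell sets, whose construction shows why they move, the cause was not tested. No alternative turned the direction of a summed ratio, but the S-phase interval in other macrophages without multi-member cells (-0.04 to 0.30) included no change. Another 67 values stayed within the interval of the main value or, for counts of members, within 1.5 times the main count. Chosen after seeing the data, without cells of concentrated UMIs the log2 ratios of Ccnb1 and Cenpf were 3.53 and 2.26 (1.02 and 1.08), without multi-member cells they turned to -2.13 and -2.08, and without both kinds of cells the mitotic ratio in microglia was 1.57. No paired analysis was possible because each group had 1 library. The control other macrophages were 279 cells, with 118 mitotic UMIs behind 23 members.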

Other observations

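Few control cells carried most of the control UMIs of a pair of mitotic members. Of 106 Ccnb1 UMIs in kept control cells, 87 (82.1%) lay in 5 cells that held 22, 21, 16, 15 and 13 each, and these cells had UMIs of 1 or 2 mitotic members in all. Of 173 Cenpf UMIs, 89 (51.4%) lay in another 5 cells with 27, 23, 17, 16 and 6 each and no further mitotic member. No cell was in both sets. Their depths were 3687 to 7784 UMIs, and their signature sums of 20.1 to 114 per 10000 put all 10 among the microglia. In the light-damaged library 2 cells with 10 Ccnb1 UMIs and 4 cells with 22 Cenpf UMIs met the same limits of 4 or more UMIs and fewer than 5 mitotic members.

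The 9 control cells with 5 or more mitotic members can be given one by one. The 7 microglia held 23, 15, 14, 11, 10, 7 and 5 mitotic members and 5, 1, 13, 2, 0, 13 and 1 S-phase members in the same order, and the 2 other macrophages held 14 and 8 mitotic and 4 and 6 S-phase members. The cell with all 23 held 91 of the 628 mitotic UMIs of control microglia (14.5%).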
